A study of Mus musculus with 120 samples.

Results

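Single mouse group 2 innate lymphoid cells (mILC2s) caught about 30 min after they began to secrete a cytokine are described here, and cells whose index was IL-5 are compared with cells whose index was IL-13. The index is the cytokine whose secretion was watched by live-cell imaging to decide when a cell was picked. The members were all cells labelled as the 30 min transition state: 11 with index IL5 and 11 with index IL13, out of 120 cells in the series. One IL-5 cell fell under the minimum of 10000 gene reads and was dropped, which left 10 IL-5 and 11 IL-13 cells. All cells came from the pooled mesentery of 20 wildtype C57BL/6 mice, were sorted as lineage-negative c-Kit+ Sca-1+ cells, had been expanded in culture with IL-2, and received IL-33 together with IL-2 as the stimulus. The reference was the unstimulated cells, labelled pre-stimulation, with 5 cells in each index, all from the first title date of that index, so that the onset cells of the second dates have no reference of their own date. The labels name no animal or culture per cell, so each index counts as 1 sample: no test was possible, and values carry only counting intervals. The 2 title dates of the IL-5 cells differ from the 2 title dates of the IL-13 cells, so index and date cannot be told apart. What a title date records is not given in the labels. The study reports that most mILC2s began to secrete both cytokines together or IL-13 first. It proposes that the IL-13 index therefore picks up an earlier transition state. The onset cells of the indexes may thus not be matched in stage, and this was not tested.

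mILC2s are tissue lymphocytes without antigen receptors that respond to IL-33, an alarmin released by damaged barrier cells, through its receptor ST2 (gene *Il1rl1*) and the adaptor MyD88. IL-5 supports eosinophils, and IL-13 acts on epithelium, smooth muscle and macrophages. Both genes lie in the type 2 cytokine cluster and are controlled by GATA3, the factor that defines these cells. A secreting cell also needs the endoplasmic reticulum, where secreted proteins are folded, and vesicle coats that carry them to the surface.

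*Il5* (ENSMUSG00000036117) is on mouse chromosome 11, at 53720794 to 53725106 on the plus strand of GRCm38, and *Il13* (ENSMUSG00000020383) at 53631324 to 53634702 on the minus strand, 86092 bases away. The 250 bases before the start of each gene in RefSeq (GRCm38.p6, chr11:53720544-53720793, plus strand, and chr11:53634703-53634952, minus strand) are shown because these are the index genes. Capitals mark GATA words, here the letters AGATAA and AGATAG, and also TGATAA and TGATAG, on either strand.
Il5: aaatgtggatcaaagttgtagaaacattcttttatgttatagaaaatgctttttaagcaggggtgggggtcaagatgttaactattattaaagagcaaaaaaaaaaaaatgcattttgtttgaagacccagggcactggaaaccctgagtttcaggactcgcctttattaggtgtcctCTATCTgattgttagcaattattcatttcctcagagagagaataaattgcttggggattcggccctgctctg
Il13: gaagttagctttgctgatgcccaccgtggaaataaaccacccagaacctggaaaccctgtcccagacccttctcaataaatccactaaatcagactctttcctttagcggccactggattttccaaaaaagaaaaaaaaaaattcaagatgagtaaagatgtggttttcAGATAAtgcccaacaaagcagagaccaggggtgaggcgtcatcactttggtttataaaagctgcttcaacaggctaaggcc
Each window holds 1 such word, at bases -72 to -67 for *Il5* and -81 to -76 for *Il13*. Of all 32851 windows of this length, 26.5% hold at least one. A match is a description of the letters and not a shown binding site.

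The onset cells held 231240 to 464846 gene reads each with index IL-5 (median 358946) and 166650 to 361239 with index IL-13 (median 219186). After thinning every cell to 100000 reads, the median number of genes with a read was 2443 in IL-5 cells and 2215 in IL-13 cells, against 2236 and 1911 before stimulation, so the IL-5 cells were both deeper and richer in genes. With every cell thinned to that depth, an alternative chosen after seeing the data, 197 genes were 4-fold higher with IL-5 and 160 with IL-13, beside the 206 and 146 reported below. All 11 ILC2 marker genes were measured and none differed 4-fold, beside 13.5% of all measured genes, so the count does not set them apart. *Gata3* stood at 1108 counts per 1000000 gene reads (CPM) with IL-5 and 1180 CPM with IL-13, and *Il1rl1* at 1586 and 1308 CPM. No marker of myeloid cells, NK cells and ILC1, ILC3, or mast cells and basophils had a read in any onset cell. Of 10 T cell markers, *Trbc2* had reads in 10 IL-5 and 10 IL-13 cells, *Cd3e* had none, and *Cd3d* had none in IL-5 cells and reads in 3 IL-13 cells, whereas *Trbc1* had reads in 3 IL-5 cells, at 51.8 CPM over all, and none in IL-13 cells. Marker genes of other cells differed 4-fold, with reads in few cells or mostly in 1: *Cd3g* (20.3 against 180 CPM, 2 cells in each index), the B cell gene *Ighm* (29.8 against 211 CPM, 2 and 4 cells, the other 5 B cell markers without a read) and the endothelial gene *Pecam1* (175 against 38.5 CPM, the other 6 stromal markers without a read). Before stimulation *Cd3g* stood at 1195 and 1128 CPM and *Ighm* at 235 and 276 CPM, above onset in both indexes. *Pecam1* stood at 5.77 and 0 CPM there.

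*Il5* was higher with the IL-5 index, but *Il13* was close to level. In IL-5 cells *Il5* ran from 316 to 11742 CPM with a median of 3661, and in IL-13 cells from 4.74 to 4156 CPM with a median of 949. The groups overlapped, and an IL-5 cell was above an IL-13 cell in 79.1% of the 110 cross pairs. Over summed reads *Il5* stood at 4602 CPM (95% counting interval 4532 to 4673) against 1310 CPM (1267 to 1354), a log2 ratio of 1.81, or 3.51-fold. Each of the 4 pairings of one IL-5 date with one IL-13 date gave a log2 ratio between 1.59 and 2.10. Before stimulation *Il5* had no read in the IL-5 cells and stood at 23.8 CPM in the IL-13 cells, the opposite order. In the other states it was higher with IL-5 as well. The log2 ratios were 0.46 at 60 min, 1.71 at 90 min, 1.92 in activated and 1.24 in silent cells.

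*Il13* had reads in all 10 IL-5 and all 11 IL-13 cells. It ran from 154 to 6480 CPM with a median of 1567 in IL-5 cells, and from 150 to 5840 CPM with a median of 1364 in IL-13 cells, so the ranges nearly coincided. The summed levels were 1897 and 2144 CPM, a log2 ratio of -0.18, and the date pairings ran from -1.09 to 0.56. Before stimulation *Il13* had no read in the 5 IL-5 cells and stood at 1.04 CPM in the 5 IL-13 cells. Read within a cell, *Il5* exceeded *Il13* in 9 of 10 IL-5 cells and in 2 of 11 IL-13 cells. The ratio of *Il5* to *Il13* CPM had a median of 1.66 in IL-5 cells and 0.38 in IL-13 cells, with ranges of 0.70 to 10.9 and 0.00629 to 3.05.

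*Csf2*, which encodes the myeloid growth factor GM-CSF, was higher with IL-5: the IL-5 cells ran from 15.1 to 47310 CPM (median 4077) and the IL-13 cells from 233 to 6457 CPM (median 1251). Its summed log2 ratio was 1.79. One IL-5 cell held 43.5% of the IL-5 reads, and leaving out any 1 cell gave log2 ratios between 1.06 and 2.21. *Calca*, the gene of the neuropeptide CGRP, had medians of 3879 and 1326 CPM and a log2 ratio of 1.42. Before stimulation *Csf2* stood at 28.0 and 1.04 CPM, the same way round, and *Calca* at 78.4 and 130 CPM, the opposite order. Both genes fell short of the 4-fold limit used for calls, and both were higher with IL-5 in all 4 date pairings.

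*Il9*, the gene of a growth factor for mast cells and for ILC2s themselves, was the one gene of 2612 measured whose cells did not overlap between the indexes. This is 0.0383% of the genes measured for genes higher with IL-5, and 0 genes were separated the other way. Every IL-5 cell had reads, from 6.64 to 39596 CPM with a median of 48.9, whereas 1 read was found in 1 of the 11 IL-13 cells. The ratio of reads was 13.82 on the log2 scale (95% counting interval 11.34 to 19.13), or 12.24 with the IL-13 group set to the floor of 3 reads used for all genes. The *Il9* reads were unevenly spread. On the first title date 1 cell held 3730 reads and the other 4 held 2 to 9 each, and on the second 1 cell held 15365 and the other 4 held 19 to 32. The lower cells thus stood at 0.0536% to 0.241% of the highest cell of their date, and the cells of an index and date are taken here to share a sequencing pool, which the labels do not state. In the IL-13 onset sets, which had no high cell, the highest cell held 0 and 1 reads. In activated cells, where both indexes had high cells, the lowest cells held 9 and 37 reads with IL-5 and 6 and 40 with IL-13. Reads passing between libraries of a pool was not tested as a source of the low values. Without the low cells the difference rests on 2 IL-5 cells.

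*Il6*, *Il4* and *Ltb* ran the other way. *Il6*, an inflammatory cytokine gene, ran from 0 to 1064 CPM (median 104) with IL-5 and from 0 to 6901 CPM (median 529) with IL-13, with a summed log2 ratio of -2.12. The first IL-13 date carried most of it, at 2911 CPM against 502 CPM on the second. *Il4*, the type 2 cytokine gene next to *Il13*, had reads in 6 of 10 and 8 of 11 cells and stood at 67.9 and 167 CPM, a log2 ratio of -1.30. Before stimulation *Il4* ran strongly the other way, at 133 CPM in the IL-5 cells and without a read in the IL-13 cells. *Ltb*, which encodes lymphotoxin beta, had a log2 ratio of -2.18 at a low level, 25.9 against 117 CPM. Leaving out 1 cell brought *Il6* to -1.58 and *Ltb* to -1.32 at the least, both short of 4-fold. Of 20 cytokine genes listed, 11 were measured, 2 were called higher with IL-5 (*Il9* and *Lta*) and 2 higher with IL-13 (*Il6* and *Ltb*), beside 7.89% and 5.59% of all 2612 measured genes. *Lta* was not higher in every date pairing, with a lowest value of -1.20.

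**Figure D1:**
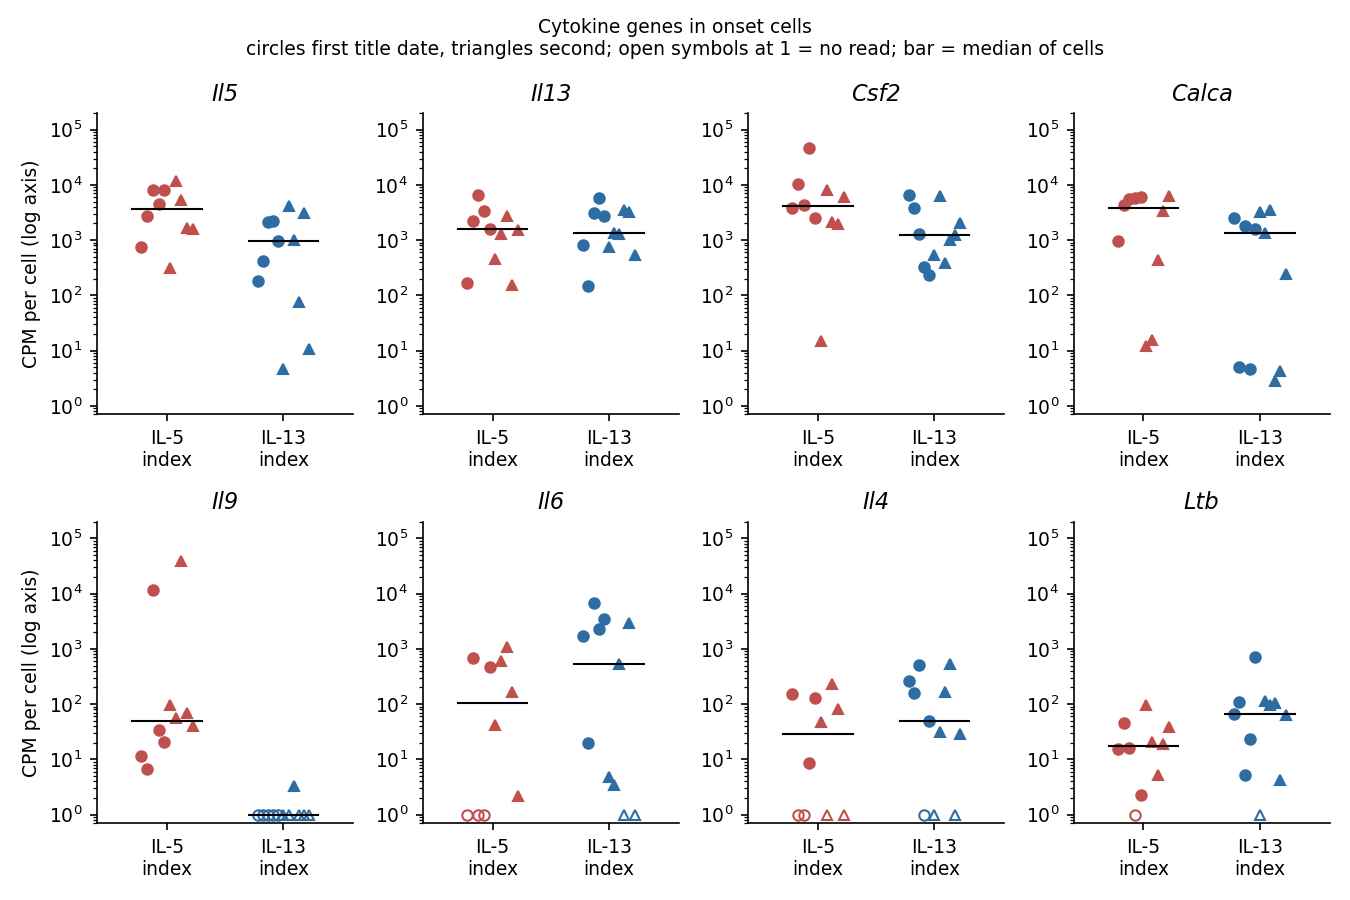
Levels of 8 cytokine genes in each onset cell, in CPM on a log axis, with IL-5 index cells in red and IL-13 index cells in blue; circles are the first title date of an index, triangles the second, bars the median of the cells, and open symbols cells without a read. The *Il13* cells of both indexes cover the same range, *Il5* is shifted up with IL-5, and only *Il9* separates the cells completely.

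Across the transcriptome, 2612 genes count as measured, those averaging 50 CPM or more between both onset indexes. At the 4-fold limit, which is a log2 ratio of 2, 206 genes were higher with IL-5 (7.89%) and 146 higher with IL-13 (5.59%), and the median log2 ratio of all measured genes was 0.14, or -0.01 with TMM scaling and -0.02 with DESeq2 size factors. With TMM the calls were 175 and 174 and with DESeq2 size factors 175 and 175, so the excess with IL-5 rested on scaling to total gene reads. Of the 206 and 146 calls, 175 (6.7%) and 117 (4.48%) held, which means that their direction, though not always the 4-fold size, was kept in all 4 date pairings and on leaving out any 1 cell. A further requirement was that the ratio exceed the one before stimulation by at least 1 on the log2 scale, which 146 (5.59%) and 101 (3.87%) met. For 25 and 18 of these, both unstimulated groups were at or under 3 reads, so the reference ratio there was set by the floor.

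The unstimulated reference itself differed widely. With 5 cells against 5, 549 of 2844 genes (19.3%) were at least 4-fold higher in the IL-5 cells and 458 (16.1%) in the IL-13 cells, 1007 (35.4%) in all. At a mean of 200 CPM or more the unstimulated shares were 6.47% and 4.1%. Of the 352 genes called at onset (13.5%), 173 were measured in the unstimulated cells: 24 were called there in the same direction and 26 in the opposite one.

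The later states of the same indexes were set beside these. Higher with IL-5 and with IL-13 were 6.5% and 5.33% of genes at 60 min, 9.52% and 6.08% at 90 min, 2.03% and 2.99% in activated cells, and 6.22% and 10.5% in silent cells. The unstimulated contrast had 5 cells in each index and these had 10 or 11, and onset sets of 5 or 6 cells gave 23.7% to 27.3% where all onset cells gave 13.5%, so the unstimulated share is not ranked with the others.

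Contrasts between the dates of one index give a second yardstick. At onset, the 2 IL-5 dates differed 4-fold in 582 of 2739 genes (21.2%) and the 2 IL-13 dates in 645 of 2563 (25.2%). The 4 date pairings across the indexes gave 23.7% to 27.3%. Among genes with a mean of at least 200 CPM, the shares were 4.61% and 6.36% within an index and 6.82% to 8.98% across. All 4 cross-index shares at 200 CPM lay above both within-index shares, while at 50 CPM the lowest of them, 23.7%, lay between the within-index shares of 21.2% and 25.2%. Genes whose cells did not overlap made up 0.694% and 0.234% of the genes between dates of one index and 1.06% to 1.34% across the indexes.

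**Figure D2:**
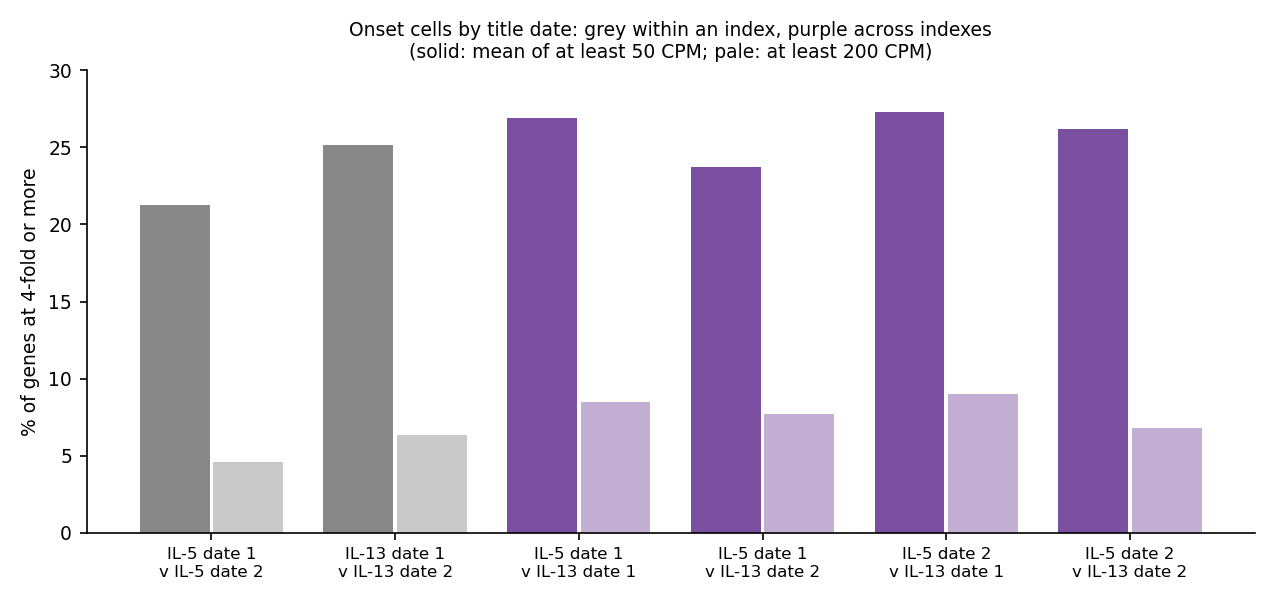
Share of genes at 4-fold or more between sets of onset cells of one title date, in percent; grey bars compare the dates of one index, purple bars dates of different indexes, solid bars genes with a mean of at least 50 CPM and pale bars at least 200 CPM. The cross-index bars lie at 23.7% to 27.3%, beside 21.2% and 25.2% within an index.

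At a mean of at least 200 CPM, 11 of 815 genes (1.35%) were called higher with IL-5 and 11 (1.35%) higher with IL-13. The former were *Il9*, *Tnfrsf9*, *Dnajc15*, *Tomm5*, *Ndufs6*, *Sh2d2a*, *Napa*, *Irf8*, *Anapc13*, *Xbp1* and *Fam107b*. The latter were *H1f0*, *Lztfl1*, *Mrpl52*, *Neat1*, *Skap1*, *H3f3b*, *Gm43305*, *Limd2*, *Il6*, *Mir155hg* and *Scand1*. All 11 of the first set and 9 of the second held in every date pairing and on leaving out any cell, the exceptions being *Mir155hg* and *Scand1*. Before stimulation *Tnfrsf9*, *Sh2d2a* (log2 ratio 2.29) and *H1f0* were past 4-fold the same way, while *Dnajc15*, *Tomm5*, *Napa* and *Anapc13* had ratios of -1.28, -1.61, -1.73 and -1.13, opposite to onset.

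**Figure D3:**
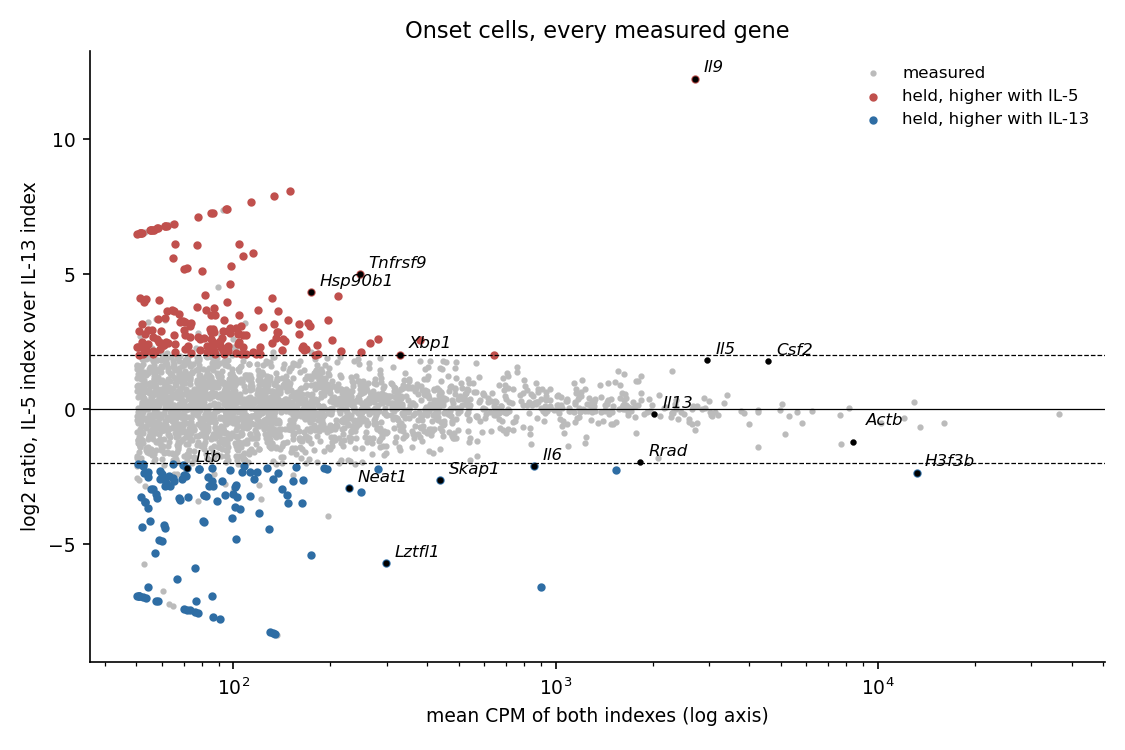
Log2 ratio of summed CPM, IL-5 index over IL-13 index, against the mean CPM of both indexes on a log axis, for the 2612 genes measured in onset cells; red and blue points are the 175 and 117 held calls and dashed lines the 4-fold limit. The sloping lines of points at the upper and lower left are genes without a read in one index, placed by the floor of 3 reads, and *Il9* lies highest at 12.24.

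Most measured genes of the secretory pathway had ratios above 0, though few reached 4-fold. Of 25 genes listed for the endoplasmic reticulum and secretion, 21 were measured: 18 had a ratio above 0 and 3 below, with a median log2 ratio of 0.97 against 0.14 for all genes. At 4-fold, 3 of the 21 were called higher with IL-5 and 0 with IL-13, and all 3 held, beside 7.89% and 5.59% of all measured genes called and 6.7% and 4.48% held. The median of this list was 0.14 before stimulation, 0.46 in activated cells and 0.69 in silent cells of the same indexes. Summed over the list, the IL-5 cells ran from 4307 to 15866 CPM (median 8208) and the IL-13 cells from 4270 to 7499 CPM (median 5246), so the upper cells differed and the lower ones overlapped.

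*Hsp90b1*, the chaperone GRP94 of the endoplasmic reticulum, had the largest ratio of the list. The IL-5 cells ran from 0 to 1049 CPM with a median of 203 and reads in 9 of 10 cells, whereas the IL-13 cells had a median of 0 and reads in 2 of 11 cells, with a highest value of 196 CPM. Its log2 ratio was 4.34 (95% counting interval 3.90 to 4.80). Leaving out 1 cell gave 4.00 to 8.09 and the date pairings 2.14 to 8.15, with 97.7% of the IL-13 reads in 1 cell. Before stimulation the levels were 376 and 342 CPM, in activated cells 860 and 623 CPM, and at 60 min after onset 384 and 343 CPM. The IL-13 onset cells thus stood below every other group, at 16.4 CPM, while the IL-5 onset cells at 332 CPM were near the unstimulated level. *Pdia6*, a disulfide isomerase, had a log2 ratio of 2.82 (171 against 24.3 CPM), and its unstimulated ratio was -1.44. *Xbp1*, the transcription factor of the unfolded protein response, ran from 3.79 to 864 CPM with IL-5 and from 0 to 647 CPM with IL-13, with a log2 ratio of 2.02 (1.85 to 2.19), beside 0.35 before stimulation and 1.85 at the lowest on leaving out 1 cell. *Creld2*, a chaperone gene of the same response, stood at 113 and 30.6 CPM, a log2 ratio of 1.88 that fell short of the limit. The signal peptidase gene *Spcs1*, the translocon gene *Ssr2*, the cargo receptor *Tmed2* and the secreted stress factor *Manf* had log2 ratios between 1.23 and 1.52. The 3 members below 0 were *Hspa5*, which encodes the main chaperone BiP, at -0.80, *Herpud1*, of protein degradation, at -0.96, and *Calr*, the chaperone calreticulin, at -0.11.

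*Dnajb11* and *Canx* were picked after their values were seen. *Dnajb11*, a partner of the chaperone BiP, had reads in 10 of 10 IL-5 cells, from 49.0 to 385 CPM, and in 1 of 11 IL-13 cells, at 152 CPM. Its log2 ratio was 3.76, and 1.71 before stimulation. At onset, leaving out 1 cell gave 3.44 to 7.05 and the date pairings 2.73 to 6.10. *Canx*, the lectin chaperone calnexin, had reads in 10 and 5 cells and a log2 ratio of 2.01, which was 1.76 on leaving out 1 cell.

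The element that the unfolded protein response acts on, ERSE, was searched in the 250 bases before each start as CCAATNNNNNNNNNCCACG on either strand, and the upstream windows of 4 of these genes are shown with the fixed letters of each match in capitals. They are RefSeq GRCm38.p6 windows at chr10:86705445-86705694 (minus strand, *Hsp90b1*), chr12:17266339-17266588 (plus, *Pdia6*), chr11:50325674-50325923 (minus, *Canx*) and chr16:22857595-22857844 (plus, *Dnajb11*).
Hsp90b1: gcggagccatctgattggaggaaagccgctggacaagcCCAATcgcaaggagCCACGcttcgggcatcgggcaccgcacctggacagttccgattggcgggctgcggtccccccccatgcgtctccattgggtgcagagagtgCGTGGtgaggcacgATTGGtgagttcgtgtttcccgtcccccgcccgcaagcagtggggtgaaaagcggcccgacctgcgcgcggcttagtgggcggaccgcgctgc
Pdia6: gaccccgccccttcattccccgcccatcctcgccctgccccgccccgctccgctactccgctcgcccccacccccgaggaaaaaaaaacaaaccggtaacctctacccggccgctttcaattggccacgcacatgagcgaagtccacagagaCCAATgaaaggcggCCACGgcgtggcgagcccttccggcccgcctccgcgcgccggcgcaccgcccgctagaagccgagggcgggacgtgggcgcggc
Canx: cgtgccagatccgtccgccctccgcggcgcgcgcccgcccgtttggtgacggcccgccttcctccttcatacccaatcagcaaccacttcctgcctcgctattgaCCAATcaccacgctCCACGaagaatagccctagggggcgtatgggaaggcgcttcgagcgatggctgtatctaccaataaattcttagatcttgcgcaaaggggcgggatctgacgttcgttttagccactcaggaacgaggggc
Dnajb11: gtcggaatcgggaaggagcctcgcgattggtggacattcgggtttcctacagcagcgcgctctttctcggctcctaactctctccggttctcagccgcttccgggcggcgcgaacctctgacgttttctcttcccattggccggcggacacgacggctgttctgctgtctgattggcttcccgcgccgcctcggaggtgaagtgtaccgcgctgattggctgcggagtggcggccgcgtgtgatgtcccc
*Hsp90b1* holds 2 matches, at bases -212 to -194 and -107 to -89, *Pdia6* 1 at -98 to -80 and *Canx* 1 at -145 to -127, while *Dnajb11* holds none in this window. Over all 32851 windows, 0.113% hold a match. Of the 25 listed secretory genes 21 had a window and 5 of them (23.8%) a match, namely *Calr*, *Creld2*, *Hsp90b1*, *Hspa5* and *Pdia6*, and 0 of 18 cytokine genes had one. Of the matching genes, *Hspa5* and *Calr* had onset log2 ratios below 0, at -0.80 and -0.11. The called *Xbp1* held no match in its window. The list was picked for its function, so the share describes the list and is not a test. CCACG alone was found in 28.3% of all windows, TGANTCA in 6.75% and TGACGTCA in 1.55%.

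Other genes that the size rule placed highest with IL-5 were mostly absent from the IL-13 cells. *Myd88*, the adaptor below the IL-33 receptor, had reads in 8 of 10 IL-5 cells, up to 352 CPM with a median of 84.3, and no read in the 11 IL-13 cells, which makes it at least 110-fold higher. Before stimulation it stood at 12.4 and 1.04 CPM, the same way round. It was at 54.4 and 34.6 CPM at 60 min, at 19.1 and 30.6 CPM, the opposite order, at 90 min, and at 128 and 42.0 CPM in activated cells. Its exons overlap *Acaa1a* on the other strand, and since the strand setting of the counting is not given in the sources used here, reads of such pairs cannot be told apart. The same holds for *Il5*, *Csf2*, *Mphosph8*, *Utp23*, *Sec24c*, *Copa*, *Hsp90b1*, *Pdia6*, *Nop14*, *Lpcat2*, *Gpi1*, *Ndufaf3*, *Lztfl1*, *Skap1*, *Rrad*, *Sqstm1*, *Jun*, *Junb*, *Jund*, *Dusp5*, *Il17rb*, *Pim1*, *Irf5*, *Pfkp*, *Kcnq1ot1* and *Malat1*, among others, which each overlap an annotated gene on the other strand. At the same floor *Pdzk1ip1*, a small membrane protein gene, was 267-fold higher, and *Mphosph8*, of the HUSH silencing complex, 238-fold. *Utp23*, a factor of small ribosomal subunit assembly, was 203-fold higher, and *Ola1*, an ATPase gene, 99.0-fold. In this order, the lower 95% counting limits of the log2 ratios were 7.76, 7.59, 7.36 and 6.32. Before stimulation *Mphosph8*, *Ola1* and *Utp23* ran the other way, at 0 and 88.1 CPM, at 25.6 and 53.9 CPM and at 0 and 11.4 CPM, and *Pdzk1ip1* had no read. *Utp23* and *Pdzk1ip1* each had reads in 9 of 10 IL-5 cells, with 58.2% and 59.7% of their IL-5 reads in 1 cell. Some of these cells held very few reads: *Pdzk1ip1* stood at 3.01, 2.59 and 2.34 CPM, and *Utp23* at 2.26 and 2.59 CPM. *Cnih4* and *Lad1*, given below, also had cells at such levels. The size rule counts such cells as cells with a read. Reads passing between libraries of a pool was not tested as their source.

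Genes of vesicle transport in this set were *Sec24c*, a COPII coat subunit, *Copa*, a COPI coat subunit, and *Cnih4*, a cargo receptor. Their log2 ratios were 6.12, 5.79 and 5.67, from 130, 227 and 210 CPM with IL-5 and 1.87, 4.11 and 4.11 CPM with IL-13. Leaving out 1 cell gave 5.73 to 6.68, 4.98 to 7.12 and 5.12 to 7.44, and the lowest date pairings were 3.26, 3.33 and 3.40. Before stimulation their ratios were -0.28, -1.45 and -0.02, and at 60 min 2.02, -3.01 and -0.49. *Noc4l*, of ribosome assembly, and *Lad1*, which encodes ladinin, completed the set with log2 ratios of 5.12 and 5.30, which ran from 4.71 to 7.01 and from 4.73 to 7.31 on leaving out 1 cell. In the date pairings the lowest ratios were 2.76 for *Noc4l* and 0.90, under 4-fold, for *Lad1*.

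*Tnfrsf9*, the costimulatory receptor 4-1BB, ran from 0 to 1441 CPM with a median of 349 in IL-5 cells, and was at 0 in 9 of 11 IL-13 cells with a highest value of 123 CPM. Its log2 ratio was 5.01 (95% counting interval 4.56 to 5.50), and an IL-5 cell was above an IL-13 cell in 91.4% of cross pairs. At 60 min it stood at 520 and 242 CPM and in activated cells at 491 and 260 CPM, higher with IL-5 in both. Before stimulation it was already the same way round, at 28.9 CPM in the IL-5 cells and without a read in the IL-13 cells. *Irf8*, an interferon regulatory factor, had reads in 10 of 10 IL-5 and 3 of 11 IL-13 cells and a log2 ratio of 2.14. Leaving out 1 cell gave 1.77 to 4.23 and the date pairings 0.62 to 7.73, with 78.4% of the IL-13 reads in 1 cell. The order was reversed at 60 min (115 and 218 CPM), at 90 min (97.9 and 172 CPM) and in activated cells (1.34 and 33.8 CPM). In silent cells it was as at onset, at 10.4 and 0 CPM. *Il2ra*, the high-affinity IL-2 receptor chain, was 1.02 higher on the log2 scale and between 0.77 and 1.19 in the date pairings, beside -0.93 before stimulation. The other states had the direction of onset, with 0.40 at 60 min, 1.48 at 90 min, 1.07 in activated and 1.24 in silent cells.

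With the IL-13 index, *H3f3b* had by far the most reads of the called genes; it was picked after its values were seen. It encodes the histone variant H3.3, which is placed in chromatin outside replication. The IL-5 cells ran from 1570 to 12397 CPM with a median of 3238, and the IL-13 cells from 1256 to 50742 CPM with a median of 18887. One IL-13 cell lay below all IL-5 cells, and an IL-5 cell was above an IL-13 cell in 12.7% of pairs. The summed levels were 4335 (95% counting interval 4267 to 4404) and 22092 CPM (21915 to 22271), 5.10-fold, and the log2 ratio was between -2.91 and -1.56 in the date pairings. Unstimulated cells stood at 1680 and 2123 CPM. With IL-13 the level was 7938 CPM at 60 min, 3327 CPM at 90 min and 1472 CPM in activated cells, and with IL-5 it was 3171, 2676 and 1748 CPM. The IL-13 onset cells were the highest of these groups. Whether a stage difference between the indexes contributed was not tested. *H1f0*, a linker histone gene, stood at 1781 against 18.9 CPM, but 59.7% of its IL-13 reads came from 1 cell, and its unstimulated log2 ratio of -4.03 was already past 4-fold the same way.

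*Lztfl1*, a regulator of ciliary membrane traffic, had the largest size-rule difference with IL-13. It had reads in 11 of 11 IL-13 cells, from 2.77 to 3367 CPM with a median of 178, and in 3 of 10 IL-5 cells, up to 86.5 CPM, with a log2 ratio of -5.69. One cell held 66.1% of the IL-13 reads, and leaving out any 1 cell gave ratios between -6.60 and -4.31. Before stimulation it stood at 745 and 355 CPM, the opposite order. *Skap1*, an adaptor of integrin activation in lymphocytes, ran from 174 to 1521 CPM (median 670) with IL-13 and from 0 to 660 CPM (median 2.16) with IL-5, a log2 ratio of -2.62. Its unstimulated levels were 1059 and 877 CPM, and the IL-5 onset cells at 123 CPM were below both. *Neat1*, the non-coding RNA of nuclear paraspeckles, had reads in 11 of 11 IL-13 and 3 of 10 IL-5 cells, with a log2 ratio of -2.91 at onset and 2.60 before stimulation.

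Further size-rule genes with IL-13 had mixed roles, and no shared theme was tested. Genes of ribosome assembly stood on both sides, since the size rule placed *Utp23* and *Noc4l* with IL-5. *Nop14*, *Rpf1* and *Rbm34*, of ribosome assembly, and *Ttf1*, which ends transcription of ribosomal DNA, had log2 ratios of -4.81, -2.71, -2.65 and -3.43. *Brd9*, a bromodomain subunit of chromatin remodellers, was at -3.19, *Lpcat2*, a phospholipid acyltransferase gene, at -3.16, and *Gpi1*, of glycolysis, at -2.86. In *Gpi1* and *Brd9* 1 cell held 100% and 91.1% of the IL-5 reads, and leaving out 1 cell gave ratios down to -7.58 and -6.52; the *Gpi1* date pairings came to -0.89, under 4-fold. *Nop14* likewise had its IL-5 reads in 1 cell, with ratios from -7.77 to -4.04 on leaving out 1 cell. *Mrpl52* and *Ndufaf3*, of mitochondrial translation and complex I assembly, were at -3.08 and -2.64. Before stimulation *Rpf1* and *Rbm34* ran the other way, with log2 ratios of 4.70 and 4.23, and *Nop14* the same way, at -3.60. Each of these genes had no read in 1 unstimulated group, so the size of these ratios was set by the floor. *Rbm34* came closest to losing its direction, with a date pairing of -0.10 and a ratio of -1.74 on leaving out 1 cell.

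**Figure D4:**
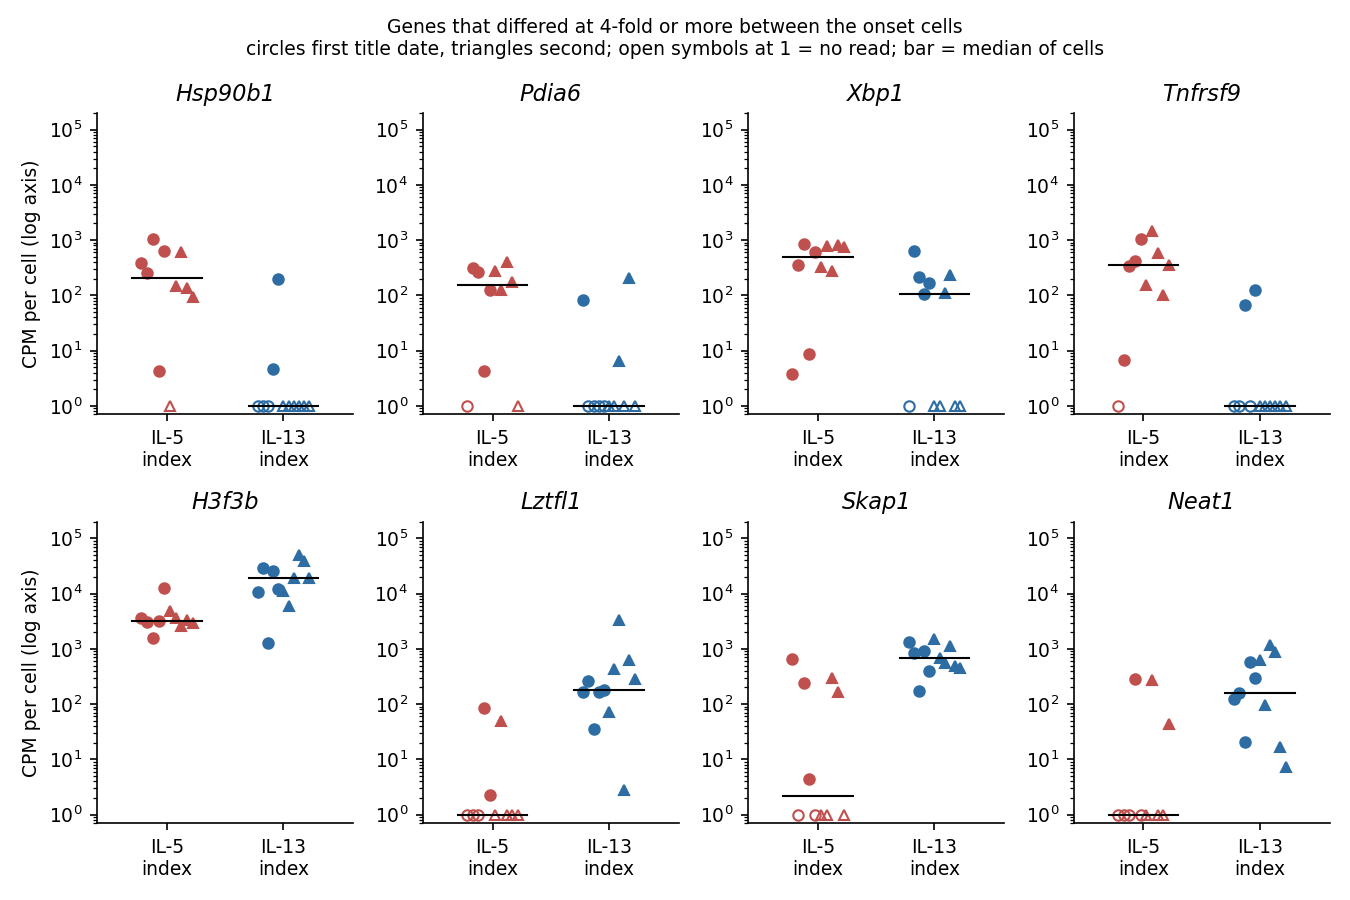
Levels of 8 genes in each onset cell, in CPM on a log axis, with IL-5 index cells in red and IL-13 index cells in blue; circles are the first title date, triangles the second, bars the median and open symbols cells without a read. The chaperone genes, *Xbp1* and *Tnfrsf9* (top row) are mostly at 0 or low with IL-13, and *H3f3b*, *Lztfl1*, *Skap1* and *Neat1* (bottom row) are lower with IL-5, with overlap in each panel.

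Several strongly expressed genes were higher with IL-13 below the 4-fold limit. *Sqstm1*, the autophagy and stress adaptor p62, ran from 1103 to 9751 CPM (median 4830) with IL-5 and from 1171 to 20820 CPM (median 8671) with IL-13, a log2 ratio of -1.30 that lay between -1.53 and -0.88 in the date pairings. Unstimulated cells had 369 and 209 CPM. At 60 min the levels were 1950 and 10169 CPM. *Rrad*, a Ras-related GTPase gene without a read before stimulation, had medians of 105 and 2277 CPM and a log2 ratio of -1.95. *Actb*, the beta-actin gene, picked after its values were seen, ran from 1900 to 9537 CPM with IL-5 and from 5321 to 22178 CPM with IL-13, a log2 ratio of -1.21, beside 0.14 before stimulation. Of the 18 growth arrest and stress genes 10 were measured, none was called, beside 13.5% of all measured genes, and the median was -0.20, with 7 measured before stimulation at a median of 0.70.

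Genes of the early IL-33 response were described as lists. Of 17 NF-kB genes and inhibitors 16 were measured, 0 were called in either direction, beside 13.5% of all measured genes, and the median log2 ratio was -0.40, with 4 genes measured before stimulation at a median of 0.50. *Relb*, an NF-kB subunit gene, had the lowest ratio at -1.88, from 91.8 against 339 CPM, but had reads in 5 of 10 IL-5 cells, all of one date. *Nfkbiz*, a nuclear cofactor of NF-kB, stood at 427 and 756 CPM with reads in all 11 IL-13 cells and 8 of 10 IL-5 cells, and before stimulation at 84.1 and 1.04 CPM, the opposite order. *Tnip1* and *Birc3* had log2 ratios of -1.42 and -1.01, and leaving out 1 cell brought *Birc3* to -0.37. *Nfkbie* had a ratio of 1.14, which leaving out 1 cell brought to 0.011. *Rel*, the c-Rel gene, was at 639 and 1024 CPM, with date pairings between -1.65 and 0.21.

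Of the 15 genes that the study named as raised in the transition state, 13 were measured and all 13 had ratios below 0, with a median of -0.83; 2 were called, *Il17rb* and *Mir155hg*, and neither held, beside 5.59% of all measured genes called higher with IL-13. The study chose this list as raised in the IL-13 index onset cells, and reports a distinct list with the IL-5 index. That choice itself favours ratios below 0, so the direction is not independent evidence. *Il17rb*, a subunit of the IL-25 receptor, rested on reads in 1 IL-5 and 4 IL-13 cells. *Egr2*, an early response transcription factor gene, had a log2 ratio of -0.81 and kept that direction in all 4 date pairings, whereas *Klrg1*, *Nr4a1* and *Tnfaip3* stood at -0.15, -0.09 and -0.13 and had 2 of 4 pairings on either side of 0. *Zc3h12a*, an RNase gene of the list that missed the 50 CPM mean, stood at 28.7 and 67.2 CPM. *Mir155hg*, the host transcript of miR-155, had a log2 ratio of -2.04, but 64.5% of its IL-13 reads came from 1 cell, and the second title date alone gave 2.73. The mature miR-155-5p (chr16:84714143-84714165, plus strand, GRCm38.p6) is shown because its host gene met the limit; capitals mark the seed, bases 2 to 8. The libraries measured the host transcript and not the miRNA.
mmu-miR-155-5p: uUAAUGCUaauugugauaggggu

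The counts of called genes in the lists that follow stand beside 13.5% of all measured genes called in either direction. Of 24 AP-1 and immediate early genes 10 were measured. *Jun* and *Dusp5* were called higher with IL-5, at log2 ratios of 2.18 and 2.02, which leaving out 1 cell brought to 1.43 and 1.20, while *Junb* and *Jund* had ratios of -1.06 and -1.25 and were the same way round in all date pairings; *Jund* and *Junb* had reads in every onset cell. *Jun* encodes the AP-1 subunit c-Jun and *Dusp5* a phosphatase of ERK. Of 16 STAT5 response genes 11 were measured and 1, *Socs2*, was called, at -3.03, without holding, and came to -0.35 on leaving out 1 cell. *Pim1*, a kinase gene downstream of IL-2, stood at 170 and 487 CPM, with 60.0% of the IL-5 reads in 1 cell, between -2.75 and -1.02 in log2 ratio on leaving out 1 cell; 1 date pairing turned the direction, at 0.35, and the unstimulated log2 ratio was 1.38. Of 14 chemokine genes 2 were measured: *Ccl1* had a log2 ratio of 1.29, between 0.49 and 2.32 on leaving out 1 cell, and *Cxcl2* had reads in 2 IL-13 cells, 99.9% of them in 1, and in no IL-5 cell. Of 20 costimulation and checkpoint genes 10 were measured and 2 were called, *Tnfrsf9* and *Tnfsf8*; 99.5% of the *Tnfsf8* reads came from 1 IL-5 cell.

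Genes of general metabolism had medians near 0, and those of ribosomal proteins, glycolysis and ribosome biogenesis changed sign when TMM or DESeq2 size factors were used for scaling. All 59 listed ribosomal protein genes of the cytosol were measured, none was called, and the median log2 ratio was 0.03, with *Rpl7a* highest at 1.71, above the IL-13 cell in 93.6% of cross pairs, and *Rpl13a* lowest at -0.78. Glycolysis had 10 genes measured with a median of 0.09, *Pgam1* called higher with IL-5 and *Gpi1* and *Pfkp* with IL-13, of which *Pfkp* at -2.02 came to -1.63 on leaving out 1 cell. Ribosome biogenesis had 12 measured with a median of 0.11 and *Nop16* called higher with IL-5 at 2.05 (1.57 on leaving out 1 cell), cell division 6 with a median of -0.08 (-2.62 before stimulation, where 7 of 12 measured were called higher with IL-13, beside 16.1% of all genes) and *Tyms* called, which rested on 3 IL-5 cells and 1 IL-13 cell and came to 0.80 on leaving out 1 cell, and the mitochondrial genome 8 with a median of -0.23 and none called. Of 6 nuclear non-coding RNAs 4 were measured: besides *Neat1*, *Kcnq1ot1* was called higher with IL-5 at 3.47, beside -4.20 before stimulation, and *Malat1* stood at 10504 and 16504 CPM. Leaving out 1 cell brought *Kcnq1ot1* to 2.59 to 7.30, and its lowest date pairing was 1.00, with 93.5% of its IL-13 reads in 1 cell. The 16 ILC2 regulators and receptors measured had a median of -0.06, the 2 measured interferon regulatory factors were *Irf8* and *Irf5*, the latter at -1.26, and of 6 genes at the type 2 cytokine locus 4 were measured with a median of -0.20.

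**Figure D5:**
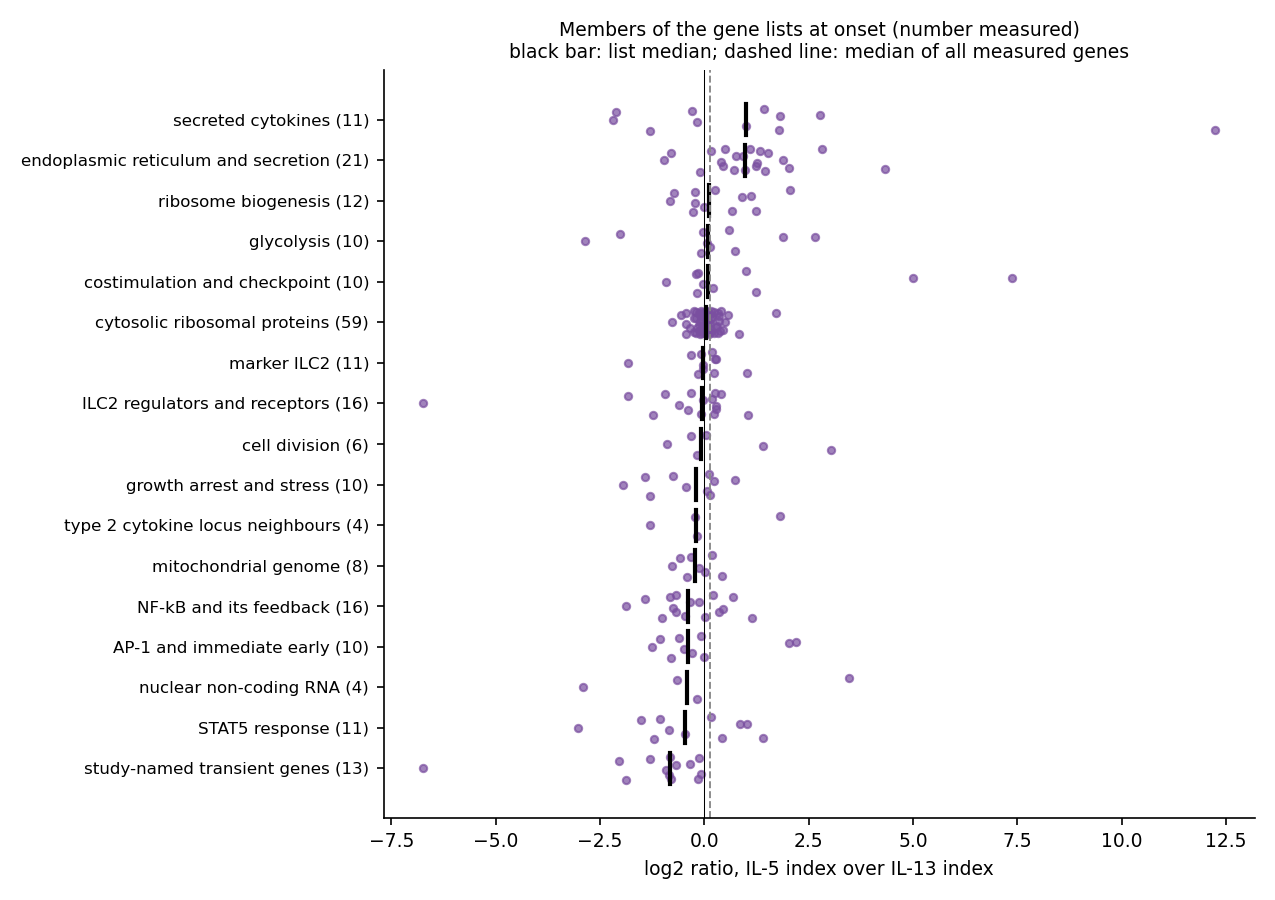
Log2 ratio of each measured member of the gene lists with at least 4 measured genes, IL-5 index over IL-13 index in onset cells; black bars are list medians, the dashed line is the median of all 2612 measured genes (0.14), and the number measured is given after each name. The medians of the secretory and cytokine lists lie near 1. The 13 study-named genes, which the study chose on the IL-13 index cells, all lie to the left of 0.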

How the data were processed

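Single cells were lysed after imaging, amplified with a SMART-Seq 3′ kit and sequenced. The authors aligned the reads to the mouse genome mm10 (GRCm38) with TopHat2 and counted them per gene with HTSeq, and deposited raw read counts for each cell. The kit's reads carry no molecular identifiers, so intervals cover counting error only. HTSeq's 5 summary entries were left out. Gene names came from GENCODE vM21, which named 45229 of 46078 identifiers; the 849 others held 0.14% of onset reads.

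Cells with at least 10000 gene reads were kept, and reads were summed per index and state and scaled to counts per 1000000 gene reads (CPM). Depth ran from 166650 to 464846 gene reads per onset cell. Log2 ratios used a floor of 3 reads per group, with exact 95% counting intervals. Genes with a mean of at least 50 CPM were measured, and a 4-fold ratio was a call. A call held when its direction was the same in all 4 date pairings and without any 1 cell. Since the labels name no culture or animal per cell, no test was run.

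Genes named were those of the cytokine, locus and study-named lists with at least 50 CPM in either index, up to 12 held calls each way by size with reads in at least 70% of the cells of the higher index, and up to 4 members of each other list by size of ratio. Further list members were named for their role, and *H3f3b*, *Dnajb11*, *Canx*, *Actb* and the genes called at 200 CPM after their values were seen. The members and lists were chosen with earlier results of these data known, and one list was chosen by the study on the IL-13 index cells. One label of the series also lists a human build, which was not used here. The contrast was tested on simulated data. Alternatives were other scaling (edgeR 4.0.16 TMM, DESeq2 1.42.0 size factors), other minimums, pseudocounts of 1 and 10 CPM, single dates and leaving out each cell, and thinning to 100000 reads, chosen after seeing the data. Python 3.11.15, pandas 2.3.3, scipy 1.17.1 and R 4.3.3 were used.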

Additional observations from a re-analysis of the deposited data

Results flagged for a closer look

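In all, 48 sets of values were looked at. They were gene levels in the IL-5 onset cells on the log2(CPM + 1) scale, and quality measures in groups of at most 10 cells. The IL-13 onset cells exceed that number and were not looked at. A cell far from the others was found in 5 sets, all of gene levels, where chance gives about 1 in 20 for normally distributed values. Values with cells at 0 are not so distributed, so no chance rate is known here. The gap to the nearest cell, as a share of the range of the 10 IL-5 onset cells, is given for each. For *Csf2* the lowest cell, at 15.1 CPM, lay below the next at 1970 CPM, a share of 0.602. For *Klrg1* the lowest cell had no read and the next stood at 229 CPM, a share of 0.772. For *Bcl3* the lowest cell had no read and the next stood at 56.6 CPM, a share of 0.650. For *Canx* the lowest cell stood at 4.32 CPM and the next at 69.9 CPM, a share of 0.548. For *Il17rb* 1 cell stood at 10.3 CPM and the others at 0, a share of 1.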

How the results depend on the processing

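Each index counts as 1 sample and its dates differ from those of the other index, so date, culture and index cannot be told apart, and the intervals leave out variation between cells. No paired analysis was possible because no result comes from a test and replicate numbers only name cells.

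The *Il5* log2 ratio was 1.66 with TMM and 1.66 with DESeq2 size factors, 2.10 on the first dates alone and 1.59 on the second, and 1.51 to 2.25 on leaving out 1 cell. The *Il13* ratio was -0.080 as a mean of cells, -0.33 with TMM, -0.33 with DESeq2 size factors, 0.060 on the first dates, -0.58 on the second, 0.019 with thinned cells and -0.56 to 0.055 on leaving out 1 cell, so it had no stable direction.

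Counts are given for IL-5 and then IL-13. With TMM there were 175 and 174 calls and 148 and 134 held, and with DESeq2 size factors 175 and 175 calls and 148 and 135 held. On the first dates alone there were 369 and 351 calls, 308 and 265 held, and 270 and 233 beyond the unstimulated ratio. On the second dates alone these were 392 and 312, 325 and 250, and 288 and 212. At a mean of 10 CPM they were 1151 and 913, 622 and 406, and 532 and 365, with 1559 and 1435 before stimulation. At 200 CPM they were 11 and 11, 11 and 9, and 9 and 8, with 52 and 33 before stimulation. With no minimum they were 2003 and 1603, 734 and 472, and 634 and 426, with 1719 and 1825 before stimulation. Leaving out 1 cell gave 202 to 236 and 153 to 185 calls, 164 to 195 and 112 to 135 held, 129 to 161 and 96 to 115 beyond the reference, and 532 to 635 and 459 to 529 before stimulation.

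Of 539 values of the 49 called named genes under the alternatives, 6 had the other sign. *Socs2* stood at 0.16 and *Pecam1* at -0.16 on the first dates alone, and *Mir155hg* at 2.73 and *Ighm* at 3.63 on the second. *Tnfsf8* stood at -0.25 on the second dates, where no cell of either index had a read. It stood at -0.22 to 7.57 on leaving out 1 cell. Both negative values had each group at the floor and so show no direction. Of the others, 317 stayed within the counting interval and 216 moved beyond it in the same direction.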
